A study of Homo sapiens with 6 samples.

Results

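Krüppel-like factor (KLF) genes were examined in PLC/PRF/5, a human hepatoma cell line, as a set of 10 listed genes: KLF2, KLF3, KLF4, KLF5, KLF6, KLF9, KLF10, KLF11, KLF13 and KLF15. They were matched by symbol to the Ensembl identifiers of a table of 25071 genes. All 10 had an entry, and 9 of them were among the 15816 genes with enough counts to test. The cells carried either a plasmid that expresses ARD1 (3 libraries) or a control vector (3 libraries), and all were collected 48 hours after transfection. ARD1, encoded by NAA10, is an enzyme that acetylates the N-termini of many proteins as they are made. The comparison asks which transcripts differed between these transfections.

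KLF proteins share a C-terminal block of C2H2 zinc fingers that binds GC-rich and CACCC sequences, and they differ in the N-terminal part that recruits partners. KLF2, KLF4, KLF5 and KLF6 belong to the branch that mainly works with acetyltransferases such as p300 and CBP, although KLF4 also represses. KLF9, KLF10, KLF11 and KLF13 recruit the SIN3A corepressor, and KLF3, like KLF8 and KLF12, recruits CtBP. Several members are rapidly induced by serum, stress or hormones, and in liver KLF6, KLF9, KLF10 and KLF15 are known for links to injury and to glucose, lipid and amino acid metabolism.

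The libraries held 21857327 to 24423503 counts with the ARD1 plasmid and 22715392 to 25011357 with the control vector. At this depth 3 counts corresponded to 0.113 to 0.143 CPM (counts per 1000000 counts of a library, with library sizes scaled by TMM). NAA10 had 294 to 400.2 CPM in ARD1 libraries and 32.2 to 36.2 CPM in control libraries. Control replicate 1 stood apart: in a chi-square comparison of gene counts, divided by its degrees of freedom, it gave 15.9 and 18.5 against the other controls, where those gave 2.86 against each other and ARD1 pairs 2.44 to 4.09. Of 11 hepatocyte and hepatoma markers 8 were tested, and 3 were higher and 5 lower in ARD1 libraries. Over all genes tested, 32.4% were higher and 32.2% lower. The summed level of the 11 markers was 1995 to 2068 CPM in ARD1 libraries against 3326 to 4073 CPM in control libraries. Most of this sum came from the keratins KRT8 and KRT18, the latter at 268.6 CPM in ARD1 and 571.6 CPM in control libraries on average. AFP was low, at 0.597 ± 0.184 CPM in ARD1 and 3.21 ± 0.702 CPM in control libraries (SD, n = 3 each). ALB, the main secreted protein of hepatocytes, had 36.3 ± 3.89 CPM in ARD1 and 315 ± 6.37 CPM in control libraries, and the keratin KRT8 1561 ± 33.5 and 2423 ± 367 CPM, whereas HNF4A, a hepatocyte identity factor, was slightly higher at 41.5 ± 1.64 and 35.0 ± 1.80 CPM (SD, n = 3 each). TTR, APOA1 and GPC3, which define hepatocytes or hepatoma cells, were near 0 in both groups, at 0.261 CPM or less on average, so part of the marker list goes against the hepatoma label, as does the endothelial CDH5 at 33.1 ± 2.44 CPM in control libraries. In these bulk samples, fewer cells of a type and less RNA per cell cannot be told apart.

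Most of the KLF genes were higher with the ARD1 plasmid, and KLF5 was lower. Of the 9 tested members 6 rose (KLF2, KLF10, KLF4, KLF11, KLF13 and KLF6), 1 fell (KLF5), and KLF9 and KLF3 did not pass edgeR's quasi-likelihood test at an adjusted p of 0.05. Of all genes tested, 32.4% rose, 32.2% fell and 64.6% changed in either direction. The ARD1 and control libraries did not overlap for 8 of the 9 members, beside 69.6% of all genes tested. All ARD1 libraries lay above all controls for 7 members, beside 35.6% of all genes, and below them for 1, KLF5, beside 34% of all genes. The median log2 fold change was 0.49 over the 9 tested members and 0.03 over all genes tested. With a fold change of at least 2 in either direction (log2 of 1) required as well, 2 members were left, KLF2 and KLF10, both higher; 21.5% of all genes passed this in either direction and 9.71% as higher. These shares describe the members and were not tested against the background. Without control replicate 1, the counts were again 6 higher and 1 lower.

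**Figure D1:**
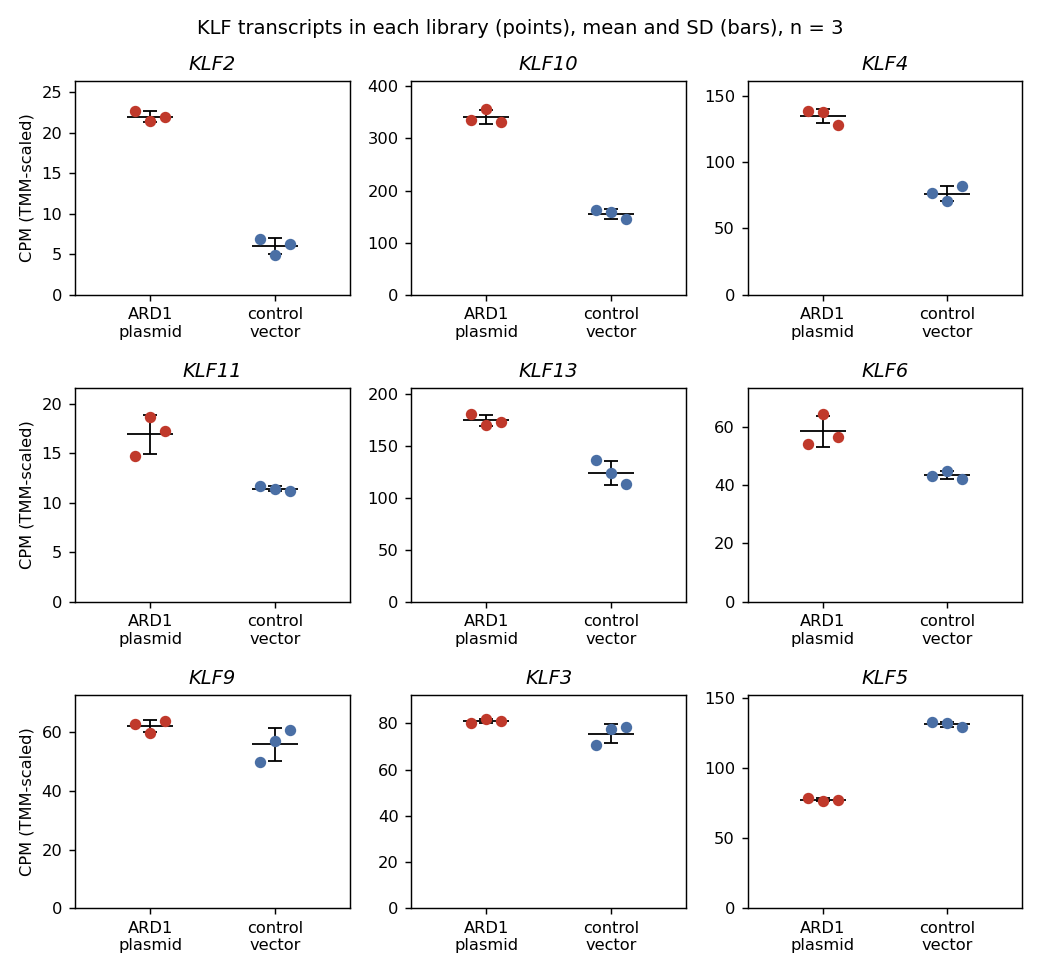
CPM of the 9 tested KLF genes in each library (points), with mean and SD (bars, n = 3 per group), ARD1 plasmid at left and control vector at right; each vertical axis starts at 0. The groups overlap for KLF9 alone, and KLF5 is the member whose ARD1 libraries all lie below the controls.

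KLF2 showed the greatest fold change of the members. This factor restrains inflammation and clotting in flow-exposed endothelium and keeps T cells quiescent. It had 22.7, 21.4 and 21.9 CPM in ARD1 libraries, against 6.91, 4.895 and 6.24 CPM in control libraries. The highest control library thus lay far below the lowest ARD1 library, at raw counts of 103 to 152 in control and 542 to 571 in ARD1 libraries. The log2 fold change was 1.87 (SE 0.125, adjusted p = 7.44e-09), a 3.65-fold difference that exceeded the log2 fold changes of 97.1% of all tested genes. KLF2 (ENSG00000127528) lies on chromosome 19 at 16324817 to 16327874, plus strand (GRCh38, as for all positions of genes below, from GENCODE 29). Because endothelial cells are the textbook site of KLF2, their markers were read alongside it: of 7, PECAM1 (57.7 ± 3.22 CPM with ARD1, 32.7 ± 4.13 CPM in controls; SD, n = 3 each), KDR (35.3 ± 4.54 and 8.53 ± 0.781 CPM) and VWF (1.40 ± 0.311 and 0.0299 ± 0.0519 CPM) were higher, while CDH5 was lower (0.0677 ± 0.0836 and 33.1 ± 2.44 CPM). TEK, too low to test, had 0.167, 0.15 and 0.161 CPM in ARD1 and 0.455, 0.808 and 0.494 CPM in control libraries. TIE1 and CLDN5 were near 0 in both groups, and the summed level of the 7 was 90.2 to 103 CPM in ARD1 and 70.0 to 82.7 CPM in control libraries. All sample titles name PLC/PRF/5 cells alone, and whether endothelial cells were present or had a part in the KLF2 result was not tested.

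KLF4, one of the reprogramming factors and a driver of epithelial differentiation, was also higher. Its level was 138.1, 137.5 and 128.1 CPM in ARD1 libraries, against 76.7, 70.2 and 81.6 CPM in control libraries. No ARD1 library came near the control range. Its log2 fold change was 0.82 (SE 0.0761, adjusted p = 2.67e-07), or 1.77-fold. The gene (ENSG00000136826) lies on chromosome 9 at 107484852 to 107490482, minus strand.

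KLF5, which promotes proliferation in intestinal crypts and other epithelia, went the other way. It had 79.1, 76.45 and 77.6 CPM in ARD1 libraries, against 132.9, 132.3 and 129.4 CPM in control libraries. Both groups were tight, with SDs of 1.35 CPM for ARD1 and 1.83 CPM for control around means of 77.7 and 131.5 CPM (n = 3 each). The log2 fold change was -0.76 (SE 0.0668, adjusted p = 1.52e-07), so the ARD1 level was 0.591 of the control level. KLF5 (ENSG00000102554) lies on chromosome 13 at 73054976 to 73077542, plus strand.

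The opposite changes of KLF4 and KLF5 exchanged their order. The ratio of KLF4 to KLF5 CPM within a library, which no scaling between libraries can alter, was 1.75, 1.80 and 1.65 in ARD1 libraries and 0.577, 0.531 and 0.630 in control libraries. KLF4 was therefore the higher of the pair in all 3 ARD1 libraries and the lower in all 3 control libraries by CPM, and the same order held per kb of exon.

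KLF6, an injury-induced factor studied as a tumour suppressor in liver and prostate, rose by less. It had 54.2, 64.4 and 56.6 CPM in ARD1 libraries, against 43.0, 45.0 and 42.2 CPM in control libraries. ARD1 replicate 2 was the highest, and the groups did not overlap. Its log2 fold change was 0.43 (SE 0.0836, adjusted p = 0.000380), or 1.35-fold. Of 7 markers of fibroblasts and stellate cells, where KLF6 is known to be induced, 5 were tested. Among those 5, 1 was higher and 2 were lower, beside 32.4% and 32.2% of all genes tested. The markers' summed level was 17.6 to 20.2 CPM in ARD1 and 78.0 to 98.6 CPM in control libraries. Their part in the KLF6 result was not tested. KLF6 (ENSG00000067082) lies on chromosome 10 at 3775996 to 3785281, minus strand.

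The regions before the start sites of KLF2, KLF4 and KLF5 are shown because these genes of 1 branch include both directions of change. They are the 250 bases before the start from RefSeq (GRCh38.p14), at chr19:16324576-16324825 (plus strand), chr9:107489770-107490019 (minus strand) and chr13:73054726-73054975 (plus strand). Capitals mark GGGCGG (a GC box, on either strand, so also as CCGCCC) and TATAAA.
KLF2: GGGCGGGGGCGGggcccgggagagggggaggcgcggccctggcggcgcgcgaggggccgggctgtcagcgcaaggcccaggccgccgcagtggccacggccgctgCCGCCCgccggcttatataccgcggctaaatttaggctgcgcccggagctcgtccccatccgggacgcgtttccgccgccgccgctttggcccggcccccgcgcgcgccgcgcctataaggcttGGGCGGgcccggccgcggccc
KLF4: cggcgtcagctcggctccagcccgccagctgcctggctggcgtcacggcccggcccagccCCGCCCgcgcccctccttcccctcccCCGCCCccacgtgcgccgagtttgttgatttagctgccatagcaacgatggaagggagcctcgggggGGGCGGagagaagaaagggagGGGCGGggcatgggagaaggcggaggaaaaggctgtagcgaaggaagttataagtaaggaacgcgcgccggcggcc
KLF5: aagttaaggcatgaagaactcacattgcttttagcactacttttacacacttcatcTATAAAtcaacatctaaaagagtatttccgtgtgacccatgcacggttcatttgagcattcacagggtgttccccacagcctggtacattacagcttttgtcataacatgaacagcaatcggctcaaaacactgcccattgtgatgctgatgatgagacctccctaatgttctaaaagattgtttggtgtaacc

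The printed KLF2 and KLF4 regions each held 4 matches to GGGCGG, and the KLF5 region held none. The windows searched ran from 250 bases before to 50 after the start and matched 8 of the 10 members, without KLF3 and KLF10. In such windows GGGCGG was present in 6 of the 8 (KLF2, KLF4, KLF6, KLF11, KLF13 and KLF15), and in 44.6% of 27305 promoters. KLF5 and KLF9 had none, and their windows were also poor in G and C, at 40.7% and 32.7%, where the other 6 had 69% to 80.7% and the median promoter 58.3%. A second annotated start of KLF5 lies 3816 bases downstream of the one used, so the letters describe 1 of its starts. The same holds for KLF13, KLF11 and KLF4, with annotated starts 13098, 416 and 123 bases downstream. For KLF4 and KLF11 the annotated gene also begins upstream of the window, at 107490482 (minus strand) and 10042849 (plus strand). The windows of KLF4 and KLF11, with the printed KLF4 region, thus lie inside the annotated genes. CACCC occurred in KLF5 and KLF13, where it shares a base with a GC box on the opposite strand, and in 58.9% of promoters. TATAAA occurred in KLF5, 194 bases before the start, and in 12% of promoters. No window held GGGTGTGG (3.22% of promoters), TGACGTCA (1.98%), TATTTATA (1.49%), the CArG box (1.29%) or TGATGNAA (3.67%), each searched on both strands.

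Among the SIN3A-recruiting members, KLF10 carried most of the change in level. KLF10, first found as a gene induced early by TGF-beta, had 335, 356 and 331 CPM in ARD1 libraries, against 162, 158 and 145 CPM in control libraries. The gap between the groups exceeded the highest control value. The log2 fold change was 1.13 (SE 0.0709, adjusted p = 3.70e-09), or 2.19-fold, and the difference of the means, 185 CPM, was the largest of any member. The gene (ENSG00000155090) lies on chromosome 8 at 102648779 to 102655902, minus strand.

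KLF11, its closest relative in the family and a regulator of the insulin gene in pancreas, was present at lower level. It had 14.7, 18.7 and 17.2 CPM in ARD1 libraries, against 11.7, 11.4 and 11.2 CPM in control libraries. The ARD1 libraries varied more (SD 2.01 CPM) than the controls (SD 0.256 CPM), yet all 3 lay above them. Its log2 fold change was 0.57 (SE 0.112, adjusted p = 0.000447). KLF11 (ENSG00000172059) lies on chromosome 2 at 10042849 to 10054836, plus strand, and 9.07% of its exon bases lie opposite exons of the antisense gene AC104794.4.

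KLF13, known as an activator of the chemokine gene CCL5 in T cells, rose to 180.1, 169.8 and 173.1 CPM in ARD1 libraries, against 135.9, 123.2 and 112.7 CPM in control libraries. Control replicate 1 was the highest control, and no library of one group reached the other. The log2 fold change was 0.49 (SE 0.0771, adjusted p = 5.42e-05). Of 6 immune markers 3 were tested, and 0 were higher and 2 lower, beside 32.4% and 32.2% of all genes tested. The summed level of the 6 was 8.75 to 9.49 CPM in ARD1 and 16.8 to 19.1 CPM in control libraries. CD3E, which defines T cells, was near 0 in both groups. The gene (ENSG00000169926) lies on chromosome 15 at 31326855 to 31435665, plus strand.

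KLF9, a target of glucocorticoid and thyroid hormone receptors, did not pass. It had 62.8, 59.9 and 63.9 CPM in ARD1 libraries, against 49.7, 57.0 and 60.9 CPM in control libraries. The highest control library lay inside the ARD1 range. Its log2 fold change was 0.16 (SE 0.0843, adjusted p = 0.120), with an interval of -0.01 to 0.32 (1.96 SE). KLF9 (ENSG00000119138) lies on chromosome 9 at 70384597 to 70414624, minus strand.

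KLF3, the CtBP-recruiting repressor of the set, also did not pass. It had 80.1, 81.9 and 81.25 CPM in ARD1 libraries, against 70.7, 77.8 and 78.3 CPM in control libraries. The groups did not overlap, but the gap between them was small beside the spread of the controls. The log2 fold change was 0.10 (SE 0.0721, adjusted p = 0.234), with an interval of -0.04 to 0.24. KLF3 (ENSG00000109787) lies on chromosome 4 at 38664196 to 38701042, plus strand, with 4.22% of its exon bases opposite KLF3-AS1.

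With library totals in place of TMM factors, which moved the median of all genes to 0.30, KLF3 (0.36, adjusted p = 0.000947; 0.000947 to 0.477 across the alternatives) and KLF9 (0.42, adjusted p = 0.00163; 0.00163 to 0.328 across them) passed as higher, and 8 members were higher in place of 6. With GC and length trends removed KLF3 stood at -0.06, where RLE scaling gave 0.08 and upper-quartile scaling 0.14. The sign of KLF3 thus turned with the GC and length offsets, and its passing rested on the scaling. KLF5 kept its negative sign in each alternative, at -0.80 to -0.49, and KLF2 its positive one, at 1.715 to 2.41, with the top value under GC and length offsets.

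KLF15, a glucocorticoid-induced factor that promotes amino acid breakdown and glucose production in liver, was at the limit of detection. It had 0 counts in each of the 3 ARD1 libraries, and 0, 1 and 3 counts in the control libraries. No library exceeded 3 counts, so no fold change is given, and a level below about 0.113 to 0.143 CPM could not be told from 0 at this depth. KLF15 (ENSG00000163884) lies on chromosome 3 at 126342635 to 126357442, minus strand.

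**Figure D2:**
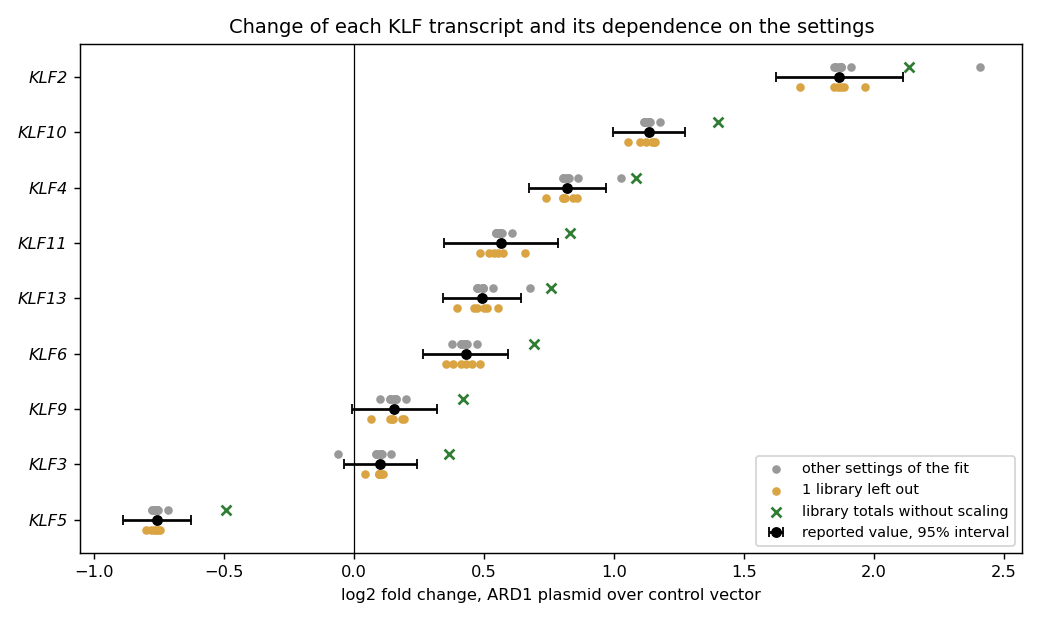
Log2 fold change, ARD1 plasmid over control vector, of the 9 tested KLF genes (black points; bars, 1.96 SE), with the value under library totals (green crosses), other settings of the fit (grey) and after leaving out each library in turn (orange). KLF2 (1.87) and KLF5 (-0.76) mark the ends, and the crosses lie to the right of the reported value for every member shown.

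Levels were compared between members after division by exon length. KLF10 led in both groups, at 85.1 ± 3.31 CPM per kb with the ARD1 plasmid and 38.8 ± 2.30 CPM per kb with the control vector (SD, n = 3 each). In ARD1 libraries it was followed by KLF4 (36.8 ± 1.54 CPM per kb), KLF5 (20.0 ± 0.347), KLF13 (18.5 ± 0.560), KLF3 (12.9 ± 0.144), KLF9 (12.02 ± 0.405), KLF2 (10.9 ± 0.318), KLF6 (9.51 ± 0.864) and KLF11 (3.68 ± 0.438), and no neighbours in this order overlapped between libraries. In control libraries the order was KLF10, KLF5 (33.8 ± 0.470 CPM per kb), KLF4 (20.8 ± 1.56), KLF13 (13.2 ± 1.23), KLF3 (12.01 ± 0.672), KLF9 (10.8 ± 1.095), KLF6 (7.07 ± 0.233), KLF2 (2.98 ± 0.510) and KLF11 (2.49 ± 0.0558). There, KLF13 overlapped KLF3, KLF3 overlapped KLF9, and KLF2 overlapped KLF11.

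The summed level of the 10 genes was 205 to 214 CPM per kb in ARD1 libraries and 140.3 to 143.9 CPM per kb in control libraries. Of that sum KLF10 supplied 40.6% ± 0.796 in ARD1 and 27.3% ± 1.34 in control libraries, while KLF5 supplied 9.54% ± 0.311 and 23.8% ± 0.183 (SD, n = 3 each). KLF2 came to 5.21% ± 0.220 with ARD1 and 2.10% ± 0.345 in controls. These shares do not depend on the scaling between libraries, and no test was run on them. Exon lengths are unions over annotated transcripts, so a member with long rarely used exons reads low per kb.

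**Figure D3:**
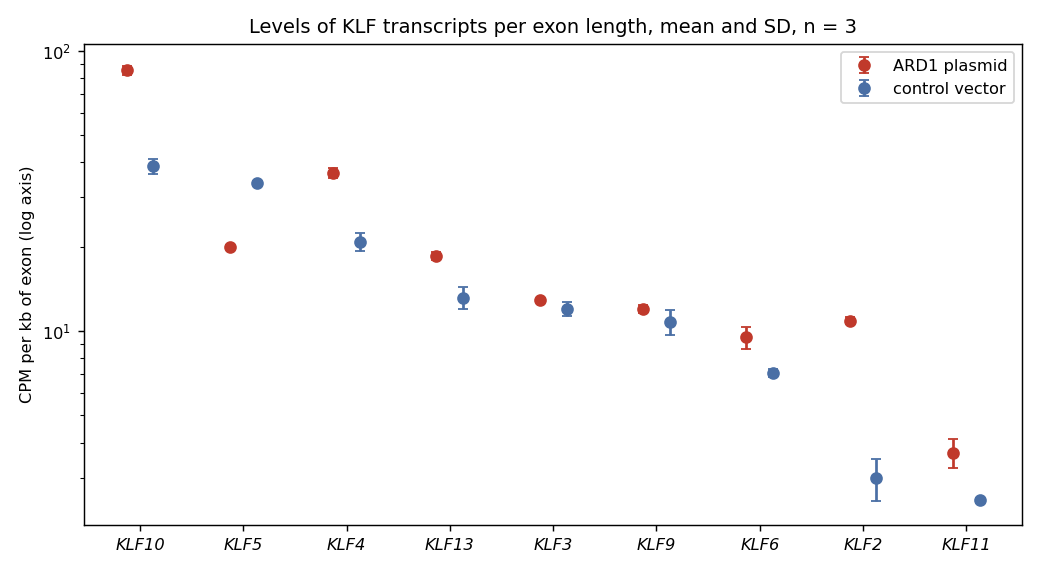
Level of the 9 tested KLF genes per kb of exon (log axis), mean and SD, n = 3, ARD1 plasmid (red, left of each pair) and control vector (blue), ordered by the control level. KLF5 ranks above KLF4 in control libraries (33.8 and 20.8 CPM per kb) and below it in ARD1 libraries (20.0 and 36.8).

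The members also differ in the make-up of their transcripts. AUUUA, the core of AU-rich elements that mark short-lived messengers, occurred in the 3′ UTR of the longest coding transcript of all 9 tested members. Its density ran from 0.892 per kb in KLF13 to 3.55 per kb in KLF2. The median was 1.71 over the 12581 tested genes whose longest coding transcript has a 3′ UTR of at least 100 bases. KLF2 and KLF5, which changed in opposite directions, had the highest densities of the 9, at 3.55 and 3.01 per kb. These rest on 3 and 5 copies and exceeded 79.75% and 72.64% of the 12581 genes. KLF6 (1.69 per kb) and KLF13 lay below the median. The longest transcript of KLF2 was 65.2% G and C, the highest of the 10, and that of KLF3 41.5%, the lowest. Processed pseudogene copies of KLF2, KLF3 and KLF4 are annotated, and their counts are uncertain to the extent that reads were shared with them.

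Related lists were read against all tested genes, of which 32.4% were higher and 32.2% lower. Of 8 further KLF genes 3 were tested, and 2 rose, 0 fell and 1 did not pass. KLF12, a CtBP-recruiting repressor, had 15.3, 16.5 and 19.1 CPM in ARD1 libraries, against 7.915, 11.1 and 12.4 CPM in control libraries (log2 fold change 0.69, SE 0.147, adjusted p = 0.000788 by edgeR's quasi-likelihood test). KLF7, a factor of neuronal development, had a log2 fold change of 0.22 (SE 0.0884, adjusted p = 0.0373) that was lost with RLE scaling (adjusted p = 0.0540) and with GC and length offsets (adjusted p = 0.571). It was also lost without ARD1 replicate 2 (0.231) or 3 (0.0504) and without control replicate 2 (0.108) or 3 (0.117). KLF16 did not pass (-0.17, adjusted p = 0.214), although it passed as lower without control replicate 2 (-0.30, adjusted p = 0.0358) and as higher with GC and length offsets (0.43, adjusted p = 6.46e-05), and 16.3% of its exon bases lie opposite AC012615.3. KLF8 had at most 3 counts in a library, and KLF1, KLF14, KLF17 and KLF18 had no entry in the table.

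The SP factors, which bind the same GC boxes, were split, with 2 of 6 tested genes higher and 2 lower. SP1, the abundant general activator, fell to 185 ± 3.30 CPM in ARD1 libraries, against 277 ± 10.3 CPM in control libraries (SD, n = 3 each; log2 fold change -0.58, SE 0.0656). SP4 rose to 8.28 ± 0.727 CPM with ARD1, against 3.98 ± 0.273 CPM in controls (1.05, SE 0.142). SP2 fell by 0.27 on the log2 scale in the main scaling, to 26.5 ± 1.82 CPM with ARD1, against 32.1 ± 3.61 CPM in controls. With library totals it stood at -0.01 (adjusted p = 0.947), with GC and length offsets at -0.03 (adjusted p = 0.778), and it did not pass without ARD1 replicate 2 (adjusted p = 0.0751) or 3 (adjusted p = 0.119).

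Partners of KLF proteins changed in both directions. Of 10 corepressors and coactivators 5 were higher and 3 lower. The acetyltransferases CREBBP (173.9 ± 3.20 CPM with ARD1, 115 ± 8.80 CPM in controls; log2 fold change 0.60) and KAT2B (41.05 ± 1.96 and 24.6 ± 2.91 CPM; 0.74) rose. The corepressor CTBP1, which KLF3 recruits, fell to 78.5 ± 0.669 CPM with ARD1, against 132.7 ± 10.85 CPM in controls (-0.76), and the deacetylase HDAC1 fell to 123 ± 4.54 CPM, against 195 ± 13.2 CPM in controls (-0.67). SIN3A, named after its value was seen like its paralogue SIN3B, had -0.24 (adjusted p = 0.0152), but turned to 0.02 with library totals (adjusted p = 0.777) and did not pass without ARD1 replicate 3 (adjusted p = 0.0872). SIN3B had 0.22 (adjusted p = 0.0298), and its call was lost with RLE scaling (adjusted p = 0.0540) and without ARD1 replicate 1 (0.135) or 2 (0.0664) or control replicate 2 (0.144) or 3 (0.209). Without control replicate 3, 3 of the list were higher.

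Of 11 ubiquitin ligases and deubiquitinases that act on KLF proteins 7 were higher and 2 lower. FBXO32, a ligase subunit for KLF4, rose to 80.8 ± 0.943 CPM in ARD1 libraries, against 24.4 ± 1.86 CPM in control libraries (log2 fold change 1.73, SE 0.0811), and BTRC rose to 31.1 ± 0.770 CPM, against 20.4 ± 0.921 CPM (0.61). WWP1, a ligase for KLF5 and KLF2, fell to 108 ± 5.61 CPM with ARD1, against 132 ± 18.6 CPM in controls (-0.30), but stood at -0.03 with library totals (adjusted p = 0.782) and did not pass without ARD1 replicate 2 (adjusted p = 0.0621). SIAH1 (-0.21, adjusted p = 0.0465) turned to 0.05 with library totals, and leaving out any library other than control replicate 1 ended its call. Without ARD1 replicate 1, control replicate 2 or control replicate 3, the count of higher ligases was 4.

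Upstream of KLF2 and KLF4 stands the ERK5 kinase module with its MEF2 factors, whose genes were 5 of 9 higher and 2 lower, with a median of 0.34. MEF2A, a direct activator of KLF2 transcription in endothelium, rose to 99.6, 97.7 and 100.2 CPM in ARD1 libraries, against 43.6, 51.9 and 56.1 CPM in control libraries (log2 fold change 0.97, SE 0.0885). MEF2C rose to 13.6 ± 1.31 CPM, against 7.61 ± 0.714 CPM in controls (0.84). MAPK7, which encodes ERK5, fell to 17.8 ± 0.695 CPM with ARD1, against 25.7 ± 2.36 CPM in controls (-0.53), and the MEF2-binding deacetylase HDAC5 fell to 46.8 ± 1.07 CPM, against 66.2 ± 8.19 CPM (-0.50).

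Immediate early genes, the class of serum- and stress-induced genes to which KLF2, KLF4, KLF6 and KLF10 are often added, were 13 of 23 higher and 2 lower, with a median of 0.40. EGR1, a zinc finger factor of this class, rose to 204.9, 191.1 and 187.1 CPM in ARD1 libraries, against 20.2, 19.0 and 16.1 CPM in control libraries (log2 fold change 3.40, SE 0.0922). ATF3, a stress-induced bZIP factor, rose to 45.0 ± 3.39 CPM with ARD1, against 7.29 ± 0.881 CPM in controls (2.62). IER3 fell to 24.6 ± 2.53 CPM, against 52.9 ± 1.83 CPM in controls (-1.10). FOS (0.03, adjusted p = 0.795), IER2 (0.05, adjusted p = 0.618) and MYC (-0.00, adjusted p = 0.963), named after their values were seen, did not pass, although all 3 passed as higher with library totals and with GC and length offsets (MYC at 0.26 and 0.18). With library totals or with GC and length offsets 20 of the 23 were higher and 1 lower, and JUNB (-0.36) turned to 0.16 under the offsets.

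Genes of the glucocorticoid receptor, the inducer of KLF9 and KLF15 in many tissues, were 3 of 8 higher and 2 lower, with a median of 0.02. The receptor gene NR3C1 rose to 97.2 ± 1.53 CPM with ARD1, against 54.7 ± 5.01 CPM in controls (log2 fold change 0.83), and ERRFI1 rose to 647 ± 9.15 CPM, against 446.8 ± 10.4 CPM (0.53). The hormone-induced liver enzyme TAT fell to 0.756 ± 0.291 CPM, against 2.68 ± 0.447 CPM in controls (-1.82), and the receptor's chaperone partner FKBP5 had -0.27 (adjusted p = 0.00494), or -0.00 with library totals (adjusted p = 0.996). KLF9 itself did not pass beside them.

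TGF-beta ligands, receptors and SMADs, the pathway that induces KLF10 and KLF11, were 6 of 15 higher and 4 lower, with a median of 0.10. TGFB1 rose to 439 ± 11.8 CPM with ARD1, against 310.0 ± 46.2 CPM in controls (log2 fold change 0.50). TGFB2 (58.5 ± 1.15 CPM with ARD1, 128 ± 7.11 CPM in controls; -1.13) and the inhibitory SMAD6 (63.7 ± 1.06 and 124 ± 3.26 CPM; -0.96) fell. SMAD7, an inhibitor of the pathway that KLF10 and KLF11 are reported to repress, fell to 48.2 ± 1.64 CPM, against 79.0 ± 4.85 CPM in controls (-0.71). SMAD7 was named after its value was seen. Higher members numbered 10 with library totals and 3 with GC and length offsets.

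Among genes reported as KLF targets in other cells, which some members activate and others repress, 21 of 31 tested genes were lower and 7 higher, with a median of -0.75; over all genes tested 32.2% were lower and 32.4% higher, with a median of 0.03. Their summed level was 1944 to 2009 CPM in ARD1 and 2433 to 2758 CPM in control libraries. SREBF1, the lipogenic factor gene that KLF15 represses in mouse liver, fell to 102 ± 4.401 CPM with ARD1, against 511 ± 58.0 CPM in controls (log2 fold change -2.33, SE 0.0858). MAOA, a monoamine oxidase gene that KLF11 activates, fell to 37.3 ± 0.659 CPM, against 122 ± 2.75 CPM in controls (-1.71, SE 0.0709). PDGFA, a growth factor gene activated by KLF5, rose to 19.65 ± 0.839 CPM, against 7.63 ± 0.509 CPM in controls (1.36, SE 0.107), while KLF5 fell. CEBPB rose to 228 ± 7.73 CPM, against 125 ± 14.5 CPM (0.86). The endothelial KLF2 targets NOS3 (-0.79, adjusted p = 0.000352) and THBD (-0.74, adjusted p = 0.000591), named after their values were seen, were lower. EDN1 (-1.74) and S1PR1 (-2.405) of the same list, named in the same way, were lower as well. The list mixes activated and repressed genes, and a part of KLF2 in these values was not tested. CDKN1A, the cell cycle inhibitor activated by KLF4 and KLF6, rose to 210.1 ± 4.81 CPM, against 142.5 ± 13.7 CPM (0.56), and CCND1, activated by KLF5 and repressed by KLF4, fell to 275.5 ± 4.88 CPM, against 409 ± 11.3 CPM (-0.57). CCL5, a KLF13 target, had 1.14 ± 0.369 CPM with ARD1 and 0.0618 ± 0.0288 CPM in controls. The control value rests on 1, 2 and 1 counts and could not be told from 0 at this depth. CDKN1A, CCND1 and CCL5 were also named after their values were seen.

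**Figure D4:**
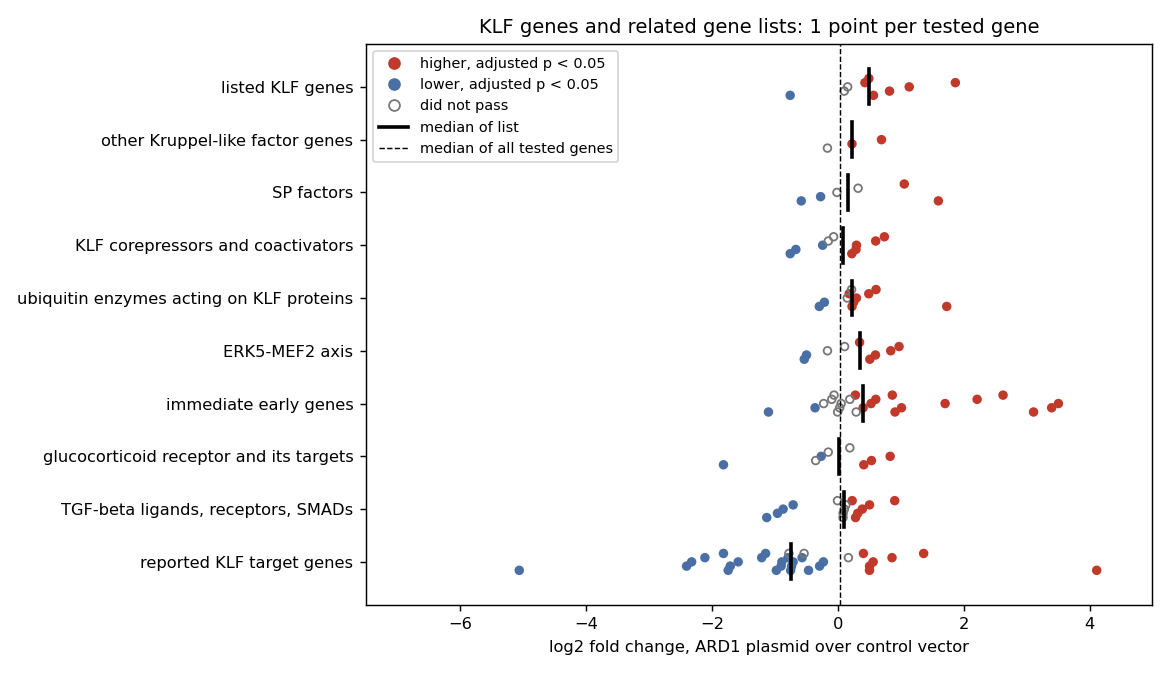
Log2 fold change, ARD1 plasmid over control vector, of each tested gene of the KLF set and of 9 related lists (red higher and blue lower at adjusted p under 0.05, open circles did not pass), with each list's median (thick bar) and the median of all tested genes (dashed line, 0.03). Among the lists drawn, the KLF target list has the lowest median (-0.75), and the KLF set the highest (0.49). The cell type marker lists are not drawn, and their medians ran from -1.20 (immune) to 1.43 (endothelial).

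Over the 6 libraries, the log2 CPM of KLF2 was most like those of ICOSLG (Pearson r 0.999), LRCH4 (0.999) and SLC17A5 (0.998). Their log2 fold changes were 1.66, 0.90 and 0.42. The libraries fall into the ARD1 and control groups, and 19.8% of 15804 other genes had an r above 0.9, so this likeness describes these libraries and says little about the genes.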

How the data were processed

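Per the submitters' processing notes, cutadapt 4.6, STAR 2.7.11b and the GRCh38 build were used. Per the labels' protocols, ribosomal RNA was depleted and a directional kit was used. Which program counted the reads, with which annotation and strand setting, is not given in the sources. The authors deposited 1 table of raw, unnormalized counts per Ensembl gene. No label ties a library to its own culture, so the p-values reflect library-to-library spread that may be technical. Intervals cover counting error and this spread only. Reads carried no molecular identifiers.

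Groups came from sample titles. Of 25071 identifiers, 25052 matched a symbol and 23129 GENCODE 29. Genes were kept by filterByExpr (15816), scaled by TMM and compared with edgeR 4.0.16's quasi-likelihood test (R 4.3.3), with Benjamini-Hochberg adjustment over all of them. CPM values were computed from the counts, and SEs from the F statistic. The fit was tested on simulated data, where it recovered 88.9% of genes changed 1.5-fold, and 7.28% of its 206 calls were false. Far fewer genes were changed there than the 10223 called here, so the simulation cannot check the scaling in these data. DESeq2 1.42.0 and limma-voom (limma 3.58.1) were among the alternatives.

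The members and lists were chosen with earlier results of these data known. Named genes were all members, NAA10, and per list up to 2 called genes in each direction with the smallest p and at least 1 CPM in the higher group. A gene that this rule names is not reported here. Members of lists and markers named beside these were chosen after their values were seen. Promoter sequences are from RefSeq (GRCh38.p14). A comparison of zinc finger protein sequences was planned and is not reported here.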

Additional observations from a re-analysis of the deposited data

How the results depend on the processing

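The 9 tested members were refitted under 16 alternatives: RLE and upper-quartile scaling, library totals, library sizes without NAA10, DESeq2, limma-voom, no filter, a filter of 1 CPM in 3 libraries, GC and length offsets, the replicate block, and each library left out in turn. The counts of 6 higher and 1 lower were the same in every alternative other than library totals (8 and 1). Requiring a log2 change of at least 1 in size left 2 members higher, 0 lower and 3406 genes called in all, in place of 6, 1 and 10223. With one library left out, 9271 to 10984 genes changed. KLF3 and KLF9 passed with library totals, which also moved the share of higher genes among those changed to 68.6%, in place of 50.2%. The sign turned for JUNB (0.16), KLF16 (0.43) and MYC (0.18) with GC and length offsets, and for SIAH1 (0.0487), SIN3A (0.024) and MYC (0.26) with library totals. Of 288 list counts by direction and alternative 33 moved by over 1.5 times, mostly by 3 genes or fewer, and the cause was not tested. Same-numbered libraries did not deviate together (r 0.0162, -0.0297 and 0.0272), so the numbers were not taken as pairs. With the replicate block 6 members were higher, 1 was lower and 10293 genes changed, and of the named genes SIAH1 alone lost its call (adjusted p = 0.0601). Depth limits KLF15 and KLF8, which had 3 counts or fewer in each library.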
